A study of Mus musculus with 2 samples.

Results

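The ID proteins and the SMAD feedback genes are fast transcriptional targets of bone morphogenetic proteins (BMPs) and of transforming growth factor beta (TGF-beta), and their mRNA levels were measured in HT22 cells, an established mouse hippocampal line that is used as a model of nerve cells. The 9 genes were Id1, Id2, Id3 and Id4, the inhibitory SMAD genes Smad6 and Smad7, the SKI family genes Skil and Ski, and Tgif1. Every probe set that the array annotation assigns to one of these symbols was taken, which gave 16 of 45037 (controls set aside), and 9 of the 18193 annotated genes. The cells were given J147 for 1 h in one culture, and the DMSO vehicle for 1 h in the other, both in medium with fetal calf serum. The vehicle is named in the title of the control sample, while its treatment label reads untreated. RNA was hybridized to Affymetrix GeneChip arrays of the mouse genome, with 1 array for J147 and 1 for vehicle. The sample labels give the concentration of J147 as 10 mM, while the methods of the study give the same figure in μM. The comparison asks which mRNAs differ 1 h after addition of J147.

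There was no replicate of either condition, so no test was possible, and whatever else set these cultures apart cannot be told apart from the compound. A change in RNA per cell also cannot be told apart from a change in the share of cells that express a gene. Values are gcRMA intensities, in which the background is corrected by the GC content of the probes, on the log2 scale as deposited. The lowest value of the table was 2.23, and 46.0% of the probe sets of the J147 array and 46.3% of those of the vehicle array were no more than 0.01 above it, so that levels there cannot be ranked. Both arrays were scaled to the same median, an intensity of 100, and probe sets with a mean above 100 were scored, 22545 in all, and they represent 10611 genes. On this scale the lowest value was 95.1 for J147 and 95.4 for vehicle. A scored probe set can therefore lie close to the lowest value, and being scored does not show that an mRNA was detected. The SD of the log2 difference over scored probe sets was 0.18, and 18.9% of them had exactly the same value for J147 and vehicle. Among the control probe sets, hybridization spikes had a median log2 difference of 0.14, labelling spikes one of -0.14 and 18S rRNA one of -0.62, and the part of these shifts in the results was not tested. Of 8 neuronal markers, 6 lay at the lowest value on both arrays, Map2 and Snap25 among them. Of 7 fibroblast markers 6 lay above it, as did 2 of 7 astrocyte markers and 2 of 7 microglia markers. None of 5 endothelial markers did, nor any of the 4 annotated oligodendrocyte markers. A gene at the lowest value is not shown to lack mRNA.

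BMPs and TGF-beta bind receptor kinases at the cell surface, which phosphorylate receptor-activated SMAD proteins. These pair with SMAD4, enter the nucleus and switch on target genes, several of which feed back on the pathway. ID proteins, which have a helix-loop-helix but no basic DNA-binding region, pair with basic helix-loop-helix (bHLH) transcription factors and keep them off DNA. They are known for holding back differentiation, in neural precursors among other cells. SMAD6 and SMAD7 block the receptors and the receptor-activated SMADs, SKI and SKIL (also called SnoN) bind SMAD complexes and recruit corepressors, and TGIF1 is a homeodomain corepressor of SMAD2 and SMAD3. Many of these genes also answer to serum and growth factors, so their mRNA alone does not tell which signal acted.

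Of the 9 genes, 3 were at least 1.5-fold higher with J147, which were Tgif1, Id2 and Smad7. None was at least 1.5-fold lower, and 6 were neither. Where a gene had several probe sets the brightest was used. By the same rule 0.556% of the scored genes were at least 1.5-fold higher and 0.81% were at least 1.5-fold lower. No member reached 2-fold in either direction, a size that 0.066% of the scored genes passed upward and 0.0754% downward. Id3 and Skil lay between, at 1.32-fold and 1.30-fold higher, Id1 was near 0 in log2 difference, and Ski, Id4 and Smad6 had lower values with J147. Among the probe sets, 4 of the 15 scored were at least 1.5-fold higher, both bright Id2 probe sets and 1 each of Smad7 and Tgif1, and none was lower, against 0.856% and 0.781% of all scored probe sets. The median log2 difference of the 9 genes was 0.38, with a range from -0.24 to 0.68, and that of all scored genes was -0.0046. With the probe sets of each gene averaged, only Tgif1 of the 9 passed, beside 0.443% of all scored genes, and the median was 0.20. With suffixed probe sets left out wherever a gene had another scored one the median was 0.031. That is the value of Id1, whose only probe set has a suffix. The 9 genes were proposed with earlier results of these arrays in view, so the counts describe them and are no test.

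**Figure D1:**
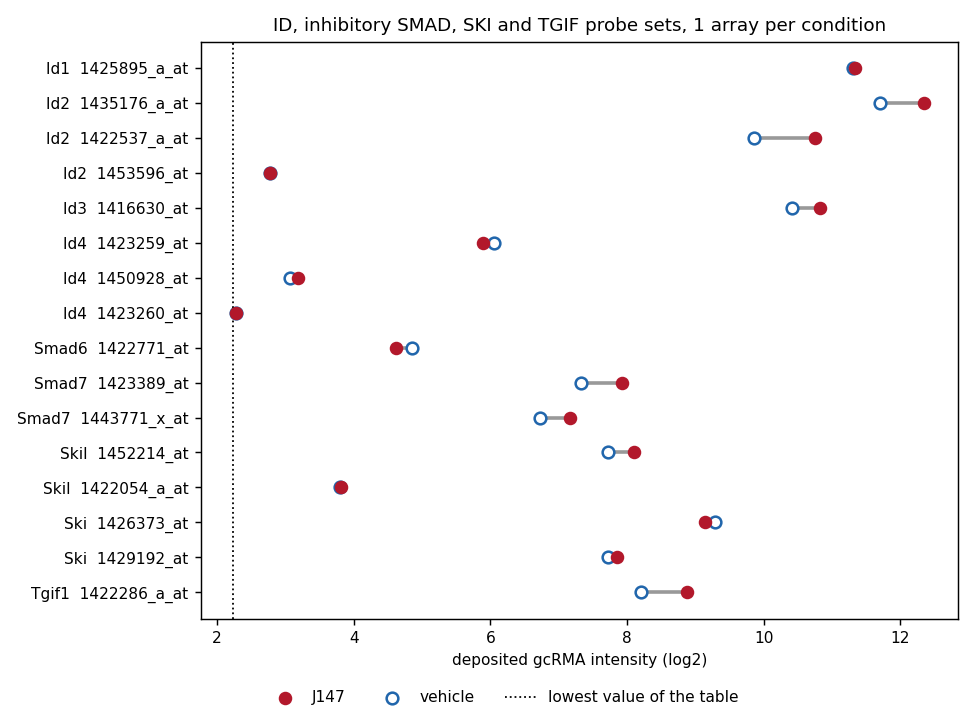
Deposited gcRMA intensity on the log2 scale (horizontal axis) of each of the 16 probe sets (vertical axis) on the J147 array (filled circles) and the vehicle array (open circles), 1 array each, with the lowest value of the table, 2.23, as a dotted line. The Id2 probe set 1422537_a_at has the longest line between its values, and Id2 1453596_at and Id4 1423260_at have identical values near the dotted line.

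Id2 had the widest difference of any member on a single probe set. Probe set 1435176_a_at, the brightest, had a log2 intensity of 12.35 for J147 and 11.70 for vehicle. That is 1.56-fold higher with J147, and 2 of the 500 scored probe sets closest to it in mean level (its neighbours) had a difference as wide in either direction. Probe set 1422537_a_at had 10.75 for J147 and 9.85 for vehicle, 1.86-fold higher, and none of its 500 neighbours differed by as much. These bright probe sets thus gave the same direction, with log2 differences of 0.64 and 0.90. The remaining one, 1453596_at, had 2.78 on both arrays, only 0.55 above the lowest value of the table, and says nothing about a change. It is also the only Id2 probe set without the suffix _a_at, which Affymetrix uses for probe sets that match several transcripts of a gene. With suffixed probe sets left out in favour of others of the gene, Id2 therefore had a log2 difference of -0.0046, the shift that scaling gives to any identical pair, and its call was lost. It was also lost with its 3 probe sets averaged, at 0.51.

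Id3 was measured by the single probe set 1416630_at, with a log2 intensity of 10.82 for J147 and 10.42 for vehicle. It was 1.32-fold higher with J147, a log2 difference of 0.40, and 10 of its 500 neighbours showed as wide a difference. Id1, which is the ID gene that BMPs are best known to induce, had log2 intensities of 11.34 for J147 and 11.30 for vehicle on its only probe set, 1425895_a_at. Its fold was 1.02, and 349 of its 500 neighbours differed by as much or more. The ID genes with bright probe sets were thus not alike on these arrays, with Id2 and Id3 outside the central 95% of their neighbours and Id1 inside it.

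Id4, whose protein acts in neural progenitors and oligodendrocyte precursors among other cells, was low. Its brightest probe set, 1423259_at, had a log2 intensity of 5.89 for J147 and 6.06 for vehicle, a log2 difference of -0.18. Probe set 1450928_at had 3.19 for J147 and 3.07 for vehicle, a difference of 0.11 in the other direction. The last, 1423260_at, had 2.27 on both arrays and was the only member probe set below the filter. The difference of the brightest was reached by 168 of its 500 neighbours, and that of 1450928_at by 146.

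Promoter sequence is shown for the ID genes with different readings, Id2 and Id3 on one side and Id4 on the other, so that the SMAD, cAMP and EGR motifs searched in them can be compared. The windows come from RefSeq (GRCm38.p6) and run 5′ to 3′ over the 250 bases before the annotated start. Capitals mark matches, on either strand, to the SMAD element GTCTAGAC, the SMAD box CAGAC, the GC-rich SMAD site GGCGCC, the cAMP response element (CRE) TGACGTCA, the CRE core TGACG, or the EGR site GCGTGGGCG.
Id2, chr12:25096093-25096342, minus strand: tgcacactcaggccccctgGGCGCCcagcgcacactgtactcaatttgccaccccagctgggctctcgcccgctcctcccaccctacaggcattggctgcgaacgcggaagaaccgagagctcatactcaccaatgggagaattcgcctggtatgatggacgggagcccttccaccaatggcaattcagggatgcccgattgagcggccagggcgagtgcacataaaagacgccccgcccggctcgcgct
Id3, chr4:136143572-136143821, plus strand: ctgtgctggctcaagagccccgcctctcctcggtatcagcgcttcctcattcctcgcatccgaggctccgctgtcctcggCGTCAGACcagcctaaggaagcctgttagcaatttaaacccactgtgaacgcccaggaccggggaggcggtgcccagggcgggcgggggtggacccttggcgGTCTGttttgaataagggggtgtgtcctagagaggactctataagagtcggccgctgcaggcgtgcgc
Id4, chr13:48260866-48261115, plus strand: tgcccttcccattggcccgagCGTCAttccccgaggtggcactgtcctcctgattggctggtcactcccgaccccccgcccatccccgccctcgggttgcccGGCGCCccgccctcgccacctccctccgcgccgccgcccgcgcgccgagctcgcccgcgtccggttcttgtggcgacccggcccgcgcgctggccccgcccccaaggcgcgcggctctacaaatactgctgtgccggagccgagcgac

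Matches were counted over windows of 300 bases, which add the 50 bases after the start. Id2 held 1 GC-rich SMAD site, Id3 held 2 SMAD boxes and 1 CRE core that overlaps one of them, and Id4 held 1 GC-rich SMAD site and 1 CRE core. Of the 32851 RefSeq promoter windows of this length, 11.9% held the GC-rich SMAD site, 49.6% the SMAD box and 20.8% the CRE core, which is also part of the full CRE. The GC-rich site was present in Id2, which was higher with J147, and in Id4, which was low and within the scatter of its neighbours. Whether the site bears on either reading was not tested, and sequence further upstream was not searched. The same search over the other members with a window covered Ski, Smad6 and the 5 starts of Tgif1. Ski held 1 GC-rich SMAD site. The 5 Tgif1 windows, in order of position, held 0, 1, 0, 2 and 1 SMAD boxes, a motif that 49.6% of all windows hold. Smad6 held the full SMAD element, which 0.213% of all windows hold, across its start. None of these 10 windows held the full CRE, found in 1.79% of all windows, or the EGR site, found in 0.612%. Id1, Skil and Smad7 were not searched. A match is a run of letters and not a shown binding site.

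Smad7, whose protein ends TGF-beta and BMP signals at the receptor, had 2 probe sets and both were higher with J147. Probe set 1423389_at had a log2 intensity of 7.93 for J147 and 7.33 for vehicle, 1.52-fold higher, just past the size used here. Only 8 of its 500 neighbours were as far apart. Probe set 1443771_x_at had 7.17 for J147 and 6.73 for vehicle, 1.36-fold higher, and 29 of its neighbours differed by as much, which left it inside their central 95%. With both averaged the log2 difference was 0.52, short of 1.5-fold. The suffix _x_at marks a probe set whose probes may also bind other transcripts. Smad6, whose protein acts mainly on BMP signals, had log2 intensities of 4.61 for J147 and 4.85 for vehicle on its single probe set 1422771_at. Its log2 difference of -0.24 was reached by 104 of its 500 neighbours. The inhibitory SMAD genes therefore lay on opposite sides of 0, with Smad7 higher by 0.60 and Smad6 within the scatter of probe sets at its level.

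**Figure D2:**
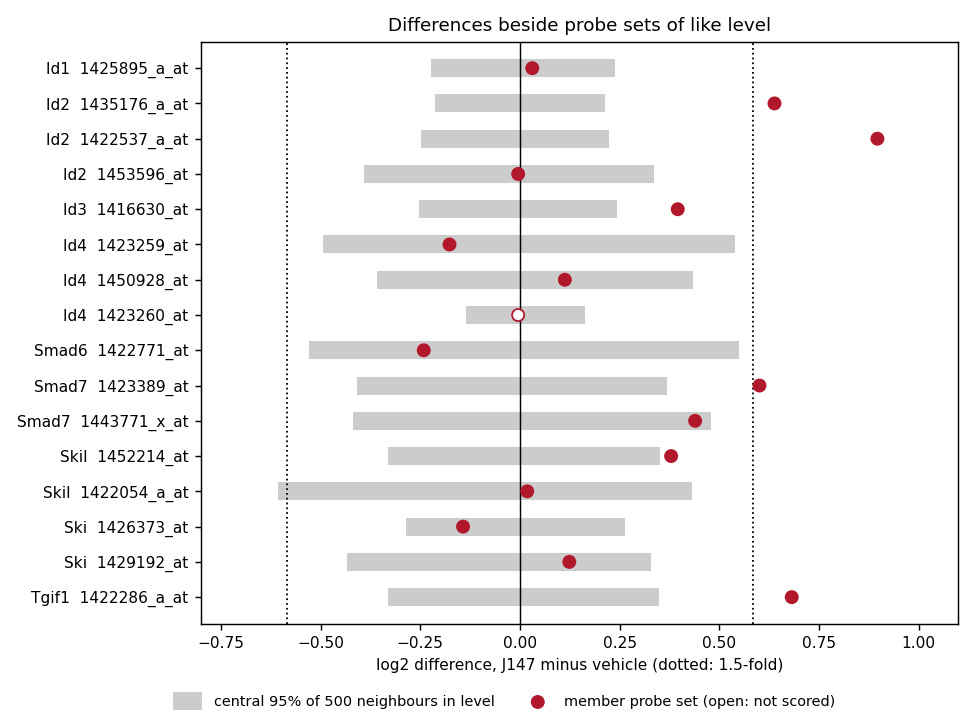
The horizontal axis gives the log2 difference, J147 minus vehicle, for every member probe set (points, open where not scored) over the central 95% of the differences of its 500 neighbours in level (grey bars). Dotted lines mark 1.5-fold, and 6 points lie to the right of their bar, those of Id2 (both bright probe sets), Id3, Smad7 1423389_at, Skil 1452214_at and Tgif1, while none lies to the left.

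Tgif1 had the largest difference among the genes read from their brightest probe set, and it is measured by 1422286_a_at alone. Its log2 intensity was 8.88 for J147 and 8.20 for vehicle, 1.60-fold higher with J147, and 2 of its 500 neighbours had as wide a difference. Ordered by log2 difference over all 10611 scored genes, with the highest at place 1, Tgif1 was at place 36, Id2 at place 43 and Smad7 at place 50. The log2 gaps between them were 0.04 from Tgif1 to Id2 and 0.04 from Id2 to Smad7. The SD among the neighbours was 0.17 for Tgif1, 0.12 for Id2 and 0.20 for Smad7. Both gaps were smaller than each of these, so the order of the genes is not settled. Id3 followed at place 145 and Skil at place 166, with a gap of 0.02 between them that is also within that scatter. The gap from Skil to Id1, at place 2978, was 0.35 and exceeded the larger neighbour SD of 0.17.

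Skil and Ski are paralogs, and SKIL protein is degraded and its gene then induced when TGF-beta acts. The Skil probe set 1452214_at had a log2 intensity of 8.10 for J147 and 7.71 for vehicle, 1.30-fold higher, and 18 of its 500 neighbours differed by as much. The other Skil probe set, 1422054_a_at, was dim, with 3.82 for J147 and 3.80 for vehicle, and its log2 difference was 0.02. By the mean over both probe sets Skil had a log2 difference of 0.20. Ski gave answers of opposite sign, with log2 intensities of 9.15 for J147 and 9.28 for vehicle on 1426373_at, and 7.85 for J147 and 7.72 for vehicle on 1429192_at. The log2 differences were -0.14 and 0.12, and they were reached by 116 and 191 of the 500 neighbours. Ski was thus not separated from the scatter, while its paralog Skil lay outside the central 95% on its bright probe set.

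**Figure D3:**
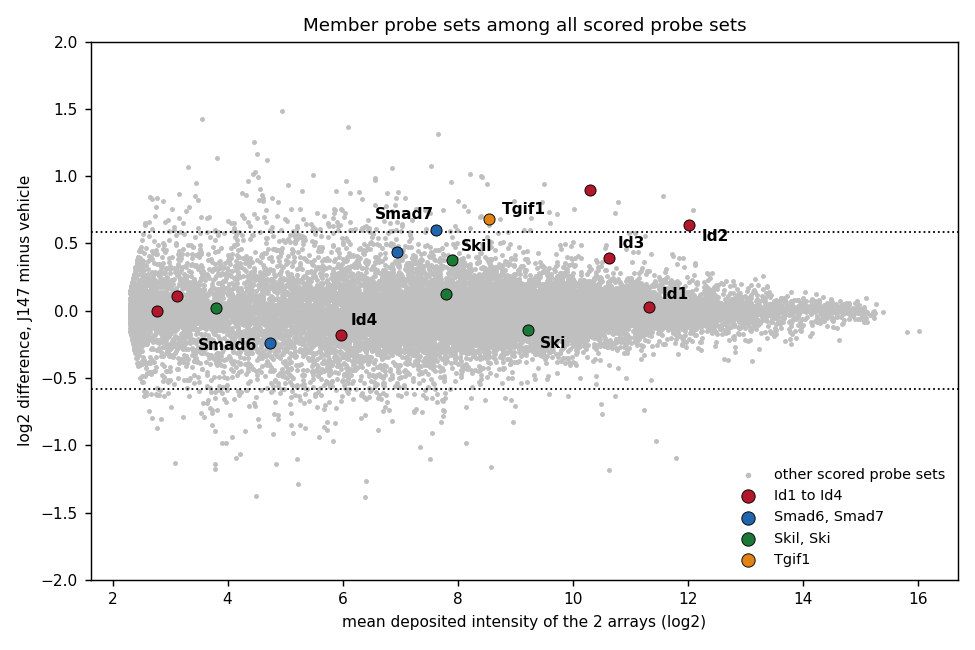
Log2 difference, J147 minus vehicle (vertical axis), against mean deposited log2 intensity of both arrays (horizontal axis) for the scored probe sets (grey; 1 lies outside the drawn range) and for the 15 scored member probe sets (coloured by family, with the gene name at the probe set read for the gene). Dotted lines mark 1.5-fold, and Tgif1, Smad7 and both bright Id2 probe sets lie above the upper one.

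The rest of the BMP and TGF-beta pathway was described with 6 lists that hold 115 genes in all, of which 109 have a probe set in the annotation and 71 were scored. Of the 71, 2 were at least 1.5-fold higher with J147, Gdf11 and Bhlhe40, none was at least 1.5-fold lower and 69 were neither. Their median log2 difference was -0.0046, the same as for all scored genes. That is the value scaling gives to identical readings, which 12 of the 71 had, so the equal medians reflect tied values. The 38 annotated genes that were not scored lay at or near the lowest value, with no log2 intensity above 2.31 on either array. Among them were the ligands Bmp2, Bmp4 and Bmp7 and the BMP antagonists Nog and Grem1, all at the lowest value. Whether J147 changed such genes cannot be read from these arrays.

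Of 12 scored ligands and extracellular antagonists, 1 was higher, none was lower, and the median log2 difference was 0.01. Gdf11, a TGF-beta family ligand that acts through activin receptors, had log2 intensities of 4.39 for J147 and 3.79 for vehicle, 1.51-fold higher at a low level. It fell short of 1.5-fold with 50 added to each scaled intensity. None of 14 scored receptors and co-receptors passed, with a median of -0.0046, and the type I receptors Bmpr1a, for BMP, and Tgfbr1, for TGF-beta, had log2 differences of -0.05 and -0.01. Bambi, a decoy receptor that BMP itself induces and that is listed here both as a receptor and as a BMP target, had log2 intensities of 7.01 for J147 and 6.46 for vehicle. It was 1.45-fold higher, and 16 of its 500 neighbours differed by as much. Acvr2a, an activin type II receptor, had the next largest difference, 0.17, while its other probe set gave -0.03.

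The signalling SMADs and the proteins that act on them, 21 scored genes, held none past 1.5-fold in either direction and had a median of -0.02. The receptor-activated SMAD genes gave log2 differences of 0.05 for Smad1, -0.06 for Smad2, 0.39 for Smad3 and -0.11 for Smad5, and the shared partner Smad4 had -0.04; these were picked after their values were seen. The largest difference in the list was that of Tob1, an antiproliferative protein that binds SMADs, with log2 intensities of 11.10 for J147 and 11.61 for vehicle, a log2 difference of -0.51 that 3 of 500 neighbours reached. The next was Zeb2, a SMAD-binding repressor, at -0.43 on its brightest probe set, with 8.583 for J147 and 9.004 for vehicle. Its 3 other scored probe sets went the other way, with log2 differences of 0.05, 0.07 and 0.29.

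Of 14 scored TGF-beta target genes 1 was higher and none lower, with a median of 0.01. This was Bhlhe40, a bHLH repressor that also acts in the circadian clock, with log2 intensities of 9.46 for J147 and 8.85 for vehicle, 1.51-fold higher, and 1 of its 500 neighbours differed by as much. Runx1 at 0.49 on its brightest probe set and Junb at 0.45, picked after their values were seen, came next. The other scored Runx1 probe sets gave 0.10 on 1427650_a_at, 0.29 on 1440878_at and -0.23 on 1422865_at. Ccn2, also picked later, had 0.32 on 1416953_at, and 11 of its 500 neighbours differed by as much. The SNAIL family gene Snai2 had -0.23, and the matrix genes Fn1 and Col1a1 had -0.10 and -0.01, each on its brightest probe set. The other Fn1 probe set, 1437218_at, went the other way, with 6.75 for J147 and 6.23 for vehicle, 1.42-fold higher. Ccn1 had a log2 difference of 0.29 by its brightest probe set, 1416039_x_at, and 0.39 by 1438133_a_at, but its dimmer probe sets 1457823_at and 1442340_x_at gave -1.29 and -1.14. On 1457823_at the log2 intensity was 4.59 for J147 and 5.87 for vehicle. Among 7 scored BMP targets none passed on its brightest probe set. Their median of -0.0046 is the value of genes with identical readings on both arrays, such as Atoh8, and with a minimum mean intensity of 200 in place of 100 it was 0.39 over 5 genes. Besides Bambi, the homeobox gene Prrx2 had 7.17 for J147 and 6.71 for vehicle, a log2 difference of 0.45, and Lox, which encodes the collagen crosslinker lysyl oxidase, had -0.31. Tbx3, picked after its values were seen, had 0.39 on its brightest probe set, 1448029_at. Its dimmer probe set 1437479_x_at gave 0.66, which is 1.58-fold higher, and the dim 1445757_at gave 0.12. Hey1, Hes1, Msx2 and Dlx5 lay at the lowest value on both arrays.

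ID proteins act through the bHLH factors they bind, and 5 of the 15 annotated genes of such factors were scored. None passed 1.5-fold, and the median log2 difference was -0.05. The E protein gene Tcf3 had the lowest, -0.13, with log2 intensities of 8.58 for J147 and 8.71 for vehicle. Twist2, a mesenchymal bHLH factor, had the highest, 0.11, with 11.16 for J147 and 11.05 for vehicle. The other E protein genes, Tcf4 and Tcf12, had -0.05 each on their brightest probe sets. Their other scored probe sets ran from -0.29 to 0.0039 for Tcf4 and from -0.18 to 0.35 for Tcf12. Neurod1, Neurog2, Olig1 and Olig2, bHLH genes of neurons and oligodendrocytes, were not scored.

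**Figure D4:**
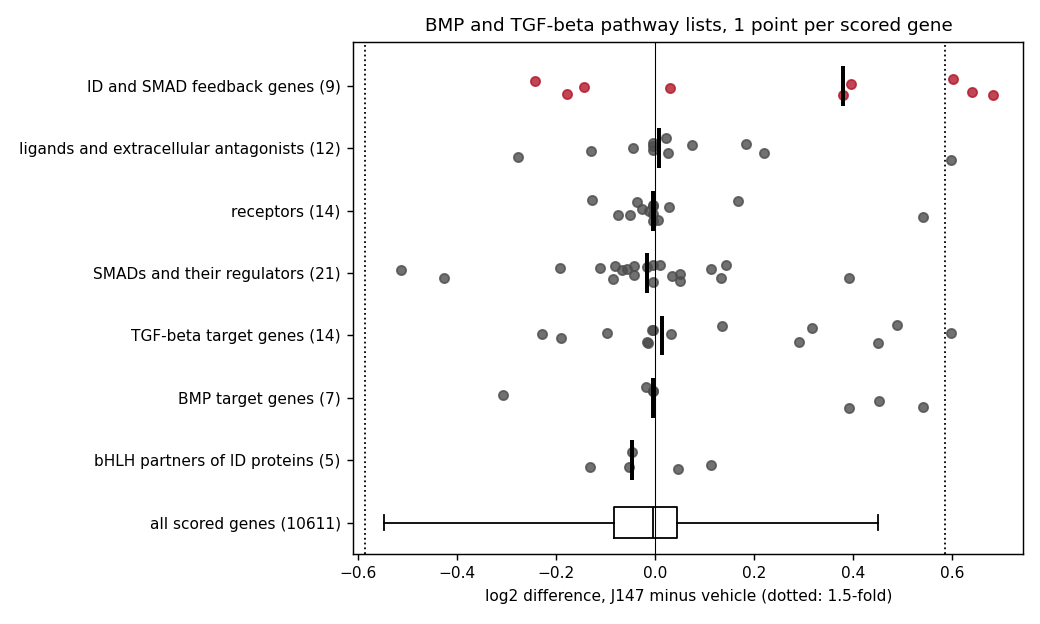
The horizontal axis gives the log2 difference, J147 minus vehicle, with a point for every scored member of the 9 ID and SMAD feedback genes and of 6 pathway lists (rows, with how many were scored), the list median as a black bar, and all 10611 scored genes as a box from the first to the third quartile with whiskers from the 1st to the 99th percentile. The ID and SMAD feedback genes have a median of 0.38 and the medians of the other lists run from -0.05 to 0.01. The BMP target median depends on dim genes. With a minimum mean of 200 it was 0.39 over 5 genes, while that of the ID and SMAD feedback genes stayed at 0.38. Dotted lines mark 1.5-fold.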

How the data were processed

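Per the methods, the authors ran gcRMA in R, and the values they deposited are log2 intensities of single arrays; the submitters' processing notes also list Affymetrix Expression Console 1.0. Neither the gcRMA version nor a genome build was given in those sources. The methods' scaling (each array to a median of 100) and intensity filter were added here, since the deposited values show neither. Symbols came from the platform annotation, which gives 34945 probe sets 1 symbol, 932 several and 9160 none, and were brought up to date by Entrez number with RefSeq (GRCm38.p6).

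The difference is log2 J147 minus vehicle, and a size of 1.5-fold stands in for a test. Scatter was read from the 500 scored probe sets closest in mean level, which share the arrays, so it is not replicate error; the number of arrays limits the precision. Members, lists and alternatives were chosen with earlier results of these data known. Named genes are all members and, from each list, up to 4 genes past 1.5-fold or else the 2 with the largest difference, besides genes stated as picked later and a few others given as examples of a list. Software was Python 3.11.15 with numpy 2.4.6, pandas 2.3.3, statsmodels 0.14.6 (lowess) and matplotlib 3.10.9, and the scripts were tested on simulated data.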

Additional observations from a re-analysis of the deposited data

How the results depend on the processing

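Each choice was changed alone: no scaling, quantile normalization, a lowess curve on level (span 0.3), 50 added to each scaled intensity, sizes of 2-fold and of 0.32 log2 units, no filter or a minimum mean of 200, averaging a gene's probe sets, and leaving out suffixed probe sets where the gene has another scored one. Scaling to the median of the scored probe sets was added after seeing the data. Under the scalings and the added 50, the same 3 genes, Tgif1, Id2 and Smad7, were at least 1.5-fold higher, and the log2 difference ran from 0.68 to 0.70 for Tgif1 1422286_a_at, from 0.62 to 0.66 for Id2 1435176_a_at and from 0.59 to 0.63 for Smad7 1423389_at. At 2-fold, the 3 genes and 4 probe sets became 0 and 0, and at 0.32 log2 units they became 5 and 7, where 2.31% of all scored genes are higher. The share of all probe sets at that size was not counted. With a gene's probe sets averaged, 1 gene, Tgif1, was left and the median of the 9 genes was 0.20. By that reading 0.443% of all scored genes were at least 1.5-fold higher. The means of Id2 and Skil take in a dim probe set, while that of Smad7 takes in 1443771_x_at, which is not dim. With suffixed probe sets left out in this way the median was 0.031, Id2 was read at -0.0046 from its dim probe set, and Smad7 and Tgif1 were left, Tgif1 on its only probe set, which has a suffix. Over all pathway lists, 2 genes higher became 1 with 50 added, 0 at 2-fold and 8 at 0.32 log2 units, and 0 lower became 2 at 0.32 log2 units and 1, Ccn1, with suffixed probe sets so left out. Of all scored genes, 4.04% were lower at 0.32 log2 units. With suffixed probe sets so left out, 0.603% were at least 1.5-fold higher and 0.848% at least 1.5-fold lower. Of 435 values of single genes or single lists, 418 remained close and 16 moved further. Close was within 1.5 times for counts, 0.1 for medians and 1 SD of the neighbours for differences. The remaining value is that of Id2 read from its dim probe set, whose readings were identical on both arrays. Some of the 435 could not move, such as the average of a gene with a single probe set or a count of scored genes at another size. The share that remained close therefore overstates how far the values were put to the test. No paired analysis was possible because each condition has 1 array, and no replicate could be left out. Dim probe sets limit what can be read for Id4, Smad6 and the second probe set of Skil.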
